A study of Mus musculus with 16 samples.

Results

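The tetraspanins described here are Cd81 and 7 relatives that are transcribed in mouse liver neutrophils: Cd9, Cd37, Cd53, Cd63, Cd82, Tspan14 and Tspan32. They are 8 of 54532 gene identifiers in the count table and 8 of 31 tetraspanin genes looked up in it. All 8 passed the filter on low counts, as did 9851 genes in all. Cd81 was picked because it was higher in cells that lack the interferon gamma receptor, and the relatives were added to set beside it. The difference between genotypes is therefore a description for all 8 genes. No p-value is given for it, and calls from the fit across all genes are given for them only as counts.

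Each of 8 C57BL/6 mice, numbered 2 to 9, was a mixed bone marrow chimera, an irradiated animal whose blood system is rebuilt from marrow of more than 1 donor. The wild-type hosts received about 1000 cGy, then equal parts (50% each) of wild-type CD45.1 marrow and of Ifngr1-deficient CD45.2 marrow, and had 8 weeks to recover. All carried flank tumours of MC38, a mouse colon carcinoma line, for 1 week before an agonist antibody against CD40 (aCD40), a costimulatory receptor. At 2 days after the antibody, neutrophils from the liver were sorted on CD45.1 and CD45.2, giving 1 wild-type (WT) and 1 Ifngr1-deficient (Ifngr1_KO) library per mouse, 8 per group and 16 in all. Every library thus comes from a treated, tumour-bearing, irradiated animal. The donor of the marrow, its CD45 variant and the gate used for sorting differed between genotypes in all mice and cannot be told apart from the receptor, and neither the age of the animals nor the CD45 type of the host cells that outlast irradiation is given in the labels.

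Tetraspanins are small membrane proteins that cross the membrane several times and gather partner proteins into patches called tetraspanin-enriched microdomains. They have few ligands of their own. They act mainly by holding integrins, proteases, immunoglobulin-family proteins and signalling receptors next to each other, and by sorting cargo into endosomes, granules and extracellular vesicles, of which CD9, CD63 and CD81 are the usual markers. CD37, CD53 and TSPAN32 are largely restricted to blood cells, and CD63 is a classical marker of neutrophil primary granules and of lysosomes.

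The libraries held 12482326 to 21725277 estimated counts. Ifngr1 itself, which checks the labels, lay between 228 and 358 CPM (counts relative to the TMM-scaled library total, in the usual parts-per-million unit) in WT and between 38.8 and 119 in Ifngr1_KO, and was lower in 8 of 8 mice. The Ifngr1_KO library of mouse 7 had the highest share of counts on mitochondrially encoded mRNAs, 2.50%, followed by that of mouse 5 with 1.84%. That share was 0.595 ± 0.272% in WT and 1.39 ± 0.656% in Ifngr1_KO (SD, n = 8). Neutrophil markers made up the bulk of the marker signal, with 8 genes such as S100a8, Csf3r and Mmp9 summing to 32011 to 54243 CPM in WT and 27319 to 83274 CPM in Ifngr1_KO. None of these 8 was called different between genotypes. The sum was higher in Ifngr1_KO in 2 of 8 mice, with medians of 44171 CPM in WT and 41333 CPM in Ifngr1_KO. The highest sum was in the Ifngr1_KO library of mouse 7. Scaling by library totals moved the median log2 difference of all genes from 0.046 to 0.16.

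The sequences just upstream of the gene starts are shown for Cd81, the member with the largest difference, and for Cd9, its close relative and the most abundant member. They show what lies where signals from the interferon gamma receptor could act on the DNA. Both are from RefSeq on GRCm38.p6, which is the mm10 build, and end at the GENCODE gene start. The Cd81 window is chr7:143052500-143052738 on the plus strand (239 bases) and the Cd9 window is chr6:125494792-125495010 on the minus strand (219 bases). Capitals mark GGGCGG, the GC box bound by Sp1-type factors, searched on both strands.

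Cd81: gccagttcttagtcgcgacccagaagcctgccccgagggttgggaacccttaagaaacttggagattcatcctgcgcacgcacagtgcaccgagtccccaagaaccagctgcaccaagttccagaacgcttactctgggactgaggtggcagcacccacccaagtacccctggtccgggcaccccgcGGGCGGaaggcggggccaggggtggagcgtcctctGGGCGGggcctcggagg

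Cd9: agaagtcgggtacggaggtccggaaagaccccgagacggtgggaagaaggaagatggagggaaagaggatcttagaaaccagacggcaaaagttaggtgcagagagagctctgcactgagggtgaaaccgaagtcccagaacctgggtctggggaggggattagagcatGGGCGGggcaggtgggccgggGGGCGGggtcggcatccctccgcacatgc

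Both windows are rich in G and C (65.3% and 61.2%), and each holds 2 GC boxes, a motif found in 31.2% of all 32851 mouse promoters over the length of the Cd81 window and in 28.3% over that of Cd9. The gamma-activated site TTCNNNGAA, which reads the same on both strands, was in neither window, nor was the core of the interferon-stimulated response element on either strand. All 8 members matched the promoter table, with 12 entries between them because Cd82 and Tspan14 have several starts. Over 250 bases upstream, TTCNNNGAA was in 0 of the 12 entries against 7.02% of all entries, the response element core was in 0 against 2.98%, and GGGCGG was in 6, from 5 members, against 32.7%. These letters are absent from these windows only.

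Cd81 (ENSMUSG00000037706, chromosome 7, 143052739 to 143067934 in mm10, plus strand) encodes a partner of the immunoglobulin-family protein EWI-2 on many cells. Its level in WT was 46.6 CPM in the lowest library, 61.0 at the median and 90.1 in the highest. In Ifngr1_KO it was 106 at the lowest, 126 at the median and 181 at the highest. The groups did not overlap. All 8 Ifngr1_KO libraries lay above the highest WT library, a separation seen for 0.173% of all genes tested, and this count was fixed by the choice of the gene. By mouse, from 2 to 9, the WT levels were 46.6, 58.3, 54.0, 90.1, 64.3, 63.7, 51.3 and 75.6 CPM, and the Ifngr1_KO levels 107, 126, 106, 150.3, 126, 124, 159 and 181 CPM.

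The ratio of Cd81 within a mouse ran from 1.67 in mouse 5, which had the highest WT level, to 3.11 in mouse 8. The log2 difference from the fit across all genes was 1.11 (SE 0.12), a level 2.15 times that of WT. The values rest on 651 to 2341 counts per library. In these bulk samples, fewer cells of a type and less RNA per cell cannot be told apart. The antisense-strand gene R74862 overlaps the start of Cd81, and its count was 0.118% of that of Cd81. The libraries carry no strand information, so this count sets no bound on antisense reads counted as Cd81. The mitochondrial share was higher in Ifngr1_KO in 6 of 8 mice. In mouse 2 it was 0.585% in WT and 0.475% in Ifngr1_KO, and in mouse 4 it was 1.19% and 0.954%, and there the log2 difference of Cd81 was 1.19 and 0.98. With that percentage added to the model the log2 difference of Cd81 was 1.12, and without mouse 7 it was 1.13. These values describe a gene selected on this contrast, and the part of the mitochondrial share in them was not tested.

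**Figure D1:**
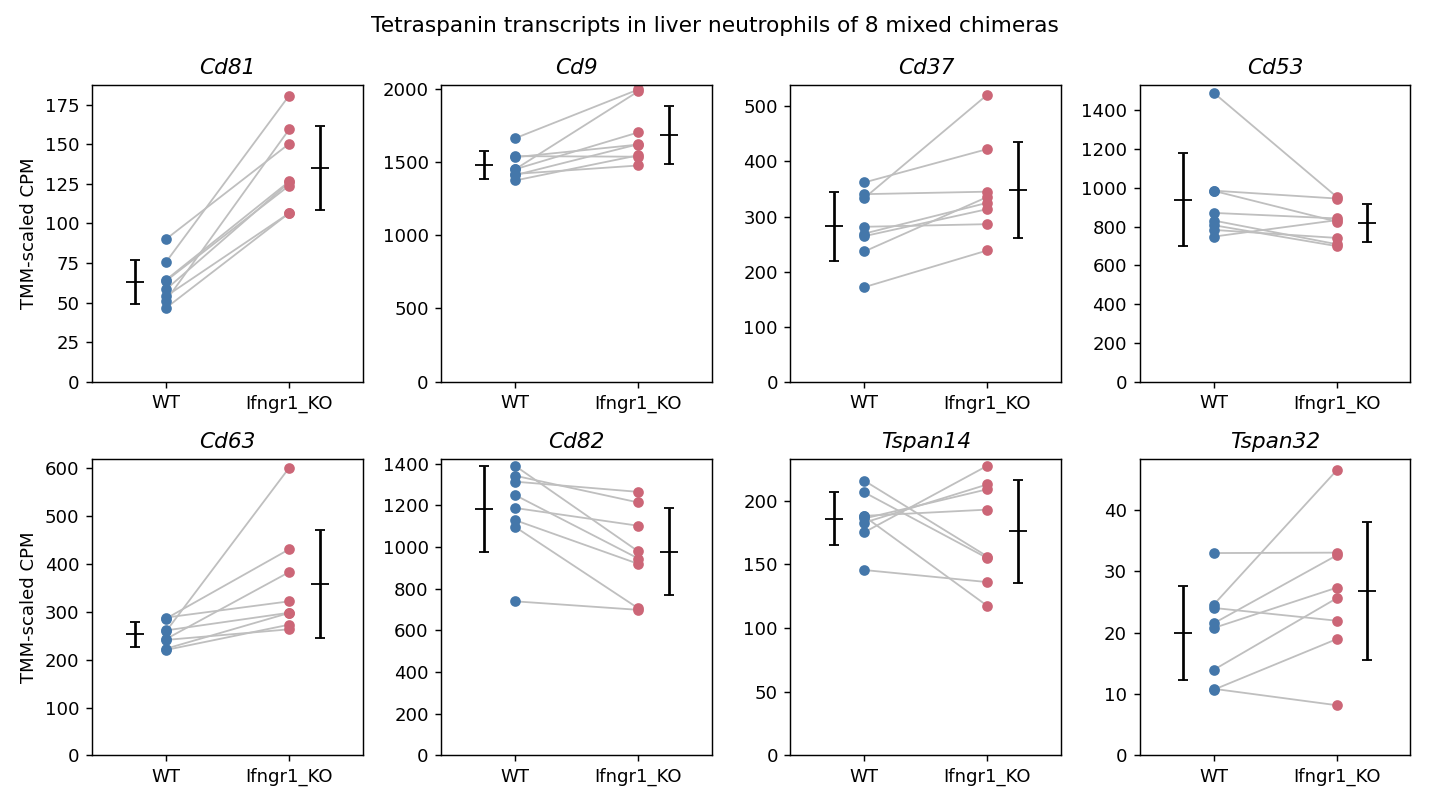
TMM-scaled CPM (y axes, starting at 0) of the 8 tetraspanins in WT and Ifngr1_KO libraries, 1 dot per library, with lines joining the libraries of a mouse and black bars for mean ± SD (n = 8). The Cd81 groups do not overlap (highest WT 90.1, lowest Ifngr1_KO 106 CPM), while those of each relative do.

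By edgeR's quasi-likelihood test with Benjamini-Hochberg adjustment (threshold 0.05), 1 of the 8 tetraspanins was called higher in Ifngr1_KO, Cd81, and none was called lower. The share of all 9851 genes called higher was 0.477% (47 genes), called lower 2.32% (229 genes) and called in either direction 2.8%. Cd81 was picked on this contrast, so its call says nothing further. When library totals replaced the trimmed-mean (TMM) factors, the split over all genes was 102 higher and 164 lower. Of the members, 3 (Cd81, Cd37 and Cd63) were then called higher. With DESeq2 the same 3 were, among 488 genes called higher. With limma-voom 2 were (Cd81 and Cd63), among 172. The median log2 difference of the 7 relatives was 0.18, against 0.046 for all genes tested, whose middle range between quartiles was -0.34 to 0.46.

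Cd63, Cd37, Cd9 and Tspan32 had log2 differences above 0, as had Cd81. Of these relatives, Cd63 and Cd37 were higher in Ifngr1_KO in 8 of 8 mice. Cd63 (ENSMUSG00000025351, chromosome 10, 128900989 to 128912822) encodes the tetraspanin of lysosomes, primary granules and multivesicular bodies. Its level was 220.3, 251 and 288 CPM (lowest, median, highest) in WT and 263, 309.9 and 601 CPM in Ifngr1_KO. Of the Ifngr1_KO libraries 6 of 8 lay above every WT library, and the highest, 601 CPM, was mouse 7. The log2 difference was 0.46 (SE 0.13), 0.35 without mouse 7, 0.21 after adjusting for the mitochondrial percentage and 0.57 with library totals. Markers of early granulocytes, which make primary granules, were near 0 in both groups. The sum over Mpo, Elane, Prtn3, Ctsg and Ms4a3 was 0 to 5.41 CPM in WT and 4.23 to 17.04 CPM in Ifngr1_KO, higher in Ifngr1_KO in 8 of 8 mice and highest in mouse 7. Of these, 2 passed the filter and neither was called. The log2 differences were 2.22 for Elane (adjusted p = 0.142, edgeR) and 1.53 for Prtn3 (0.339). Elane was at most 0.844 CPM in WT and at least 0.927 CPM in Ifngr1_KO. Such a separation was seen for 0.173% of all genes tested, but a gene this scarce can pass the filter through the group where it is higher. Nothing is read from the Elane separation. The groups overlapped for Prtn3. The part of these genes in the Cd63 values was not tested.

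Cd37 (ENSMUSG00000030798, chromosome 7, 45233632 to 45239115), a leukocyte tetraspanin that associates with the fungal receptor dectin-1, had 172, 275 and 362 CPM in WT and 239, 330.3 and 521 CPM in Ifngr1_KO. The groups overlapped broadly, with 6 of 8 Ifngr1_KO libraries inside the WT range, but the Ifngr1_KO library was the higher in 8 of 8 mice. The margin was small in mouse 4 (ratio 1.01) and mouse 6 (1.02) and largest in mouse 7 (1.56). The log2 difference was 0.30 (SE 0.10), 0.13 with the mitochondrial covariate and 0.41 with library totals. Besides Cd81, which was picked for being higher, Cd63 and Cd37 were thus higher in all 8 mice, 2 of 7 relatives. Of all genes tested 2.76% were, and nothing is read from this because the relatives were chosen with the contrast known.

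Cd9 (ENSMUSG00000030342, chromosome 6, 125460266 to 125494791), which binds integrins and the precursor of the growth factor HB-EGF, was the steadiest member. Its level was 1373, 1449.6 and 1661 CPM in WT and 1475, 1619 and 1994 CPM in Ifngr1_KO, with a coefficient of variation of 6.32% over the WT libraries. Most Ifngr1_KO libraries (5 of 8) lay inside the WT range, and mice 7 and 9 held the highest values. The log2 difference was 0.18 (SE 0.082), 0.10 with the mitochondrial covariate and 0.29 with library totals. The Ifngr1_KO library was higher in 7 of 8 mice. Of all genes tested, 10.2% were higher in at least 7 mice. In mouse 5 the ratio was 0.998. Antisense-strand genes that overlap Cd9 had counts of at most 0.875% of its own. Without strand information these counts set no bound on antisense reads counted as Cd9.

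Tspan32 (ENSMUSG00000000244, chromosome 7, 143005046 to 143019644), a blood-cell tetraspanin whose gene ends 33.1 kb before Cd81 begins, was the scarcest member. Its level was 10.7, 21.1 and 32.98 CPM in WT and 8.19, 26.5 and 46.4 CPM in Ifngr1_KO, from 123 to 653 counts per library. The groups overlapped and the mice disagreed, with a ratio of 1.89 in mouse 5 and 0.754 in mouse 3. The log2 difference was 0.39 (SE 0.20), with the Ifngr1_KO library higher in 6 of 8 mice.

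Cd82, Cd53 and Tspan14 had log2 differences below 0. Cd82 (ENSMUSG00000027215, chromosome 2, 93419111 to 93463140), known as the metastasis suppressor KAI1, had 739, 1218 and 1389 CPM in WT and 698, 962 and 1264 CPM in Ifngr1_KO. The groups overlapped, with 6 of 8 Ifngr1_KO libraries inside the WT range, yet Ifngr1_KO was the lower library in 8 of 8 mice, as for 4.93% of all genes tested. The log2 difference was -0.28 (SE 0.096), -0.17 with library totals and -0.16 with the mitochondrial covariate. The deepest within-mouse difference, -0.64, was in mouse 7 and the shallowest, -0.055, in mouse 5.

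Cd53 (ENSMUSG00000040747, chromosome 3, 106759921 to 106790149), a leukocyte tetraspanin linked to CD45, had 748, 851 and 1491 CPM in WT and 699.5, 829.8 and 954 CPM in Ifngr1_KO. The WT library of mouse 9 stood far above the other WT libraries, of which the next held 986 CPM. The log2 difference was -0.17 (SE 0.099), -0.10 without mouse 9 and -0.059 with library totals, with Ifngr1_KO lower in 7 of 8 mice. Of all genes tested, 11.4% were lower in at least 7 mice. Its partner Ptprc, which encodes CD45, the protein on which the cells were sorted, had 725 ± 134 CPM against 698 ± 119 CPM in the receptor-deficient cells (SD, n = 8) and was not called (adjusted p = 0.811, edgeR).

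Tspan14 (ENSMUSG00000037824, chromosome 14, 40906445 to 40966807), which escorts the protease ADAM10 to the cell surface, had 146, 187 and 216 CPM in WT and 117, 175 and 228 CPM in Ifngr1_KO. Mice split evenly, 4 higher and 4 lower. The log2 difference of -0.11 (SE 0.14) changed sign with library totals (0.0060) and with the mitochondrial covariate (0.14).

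**Figure D2:**
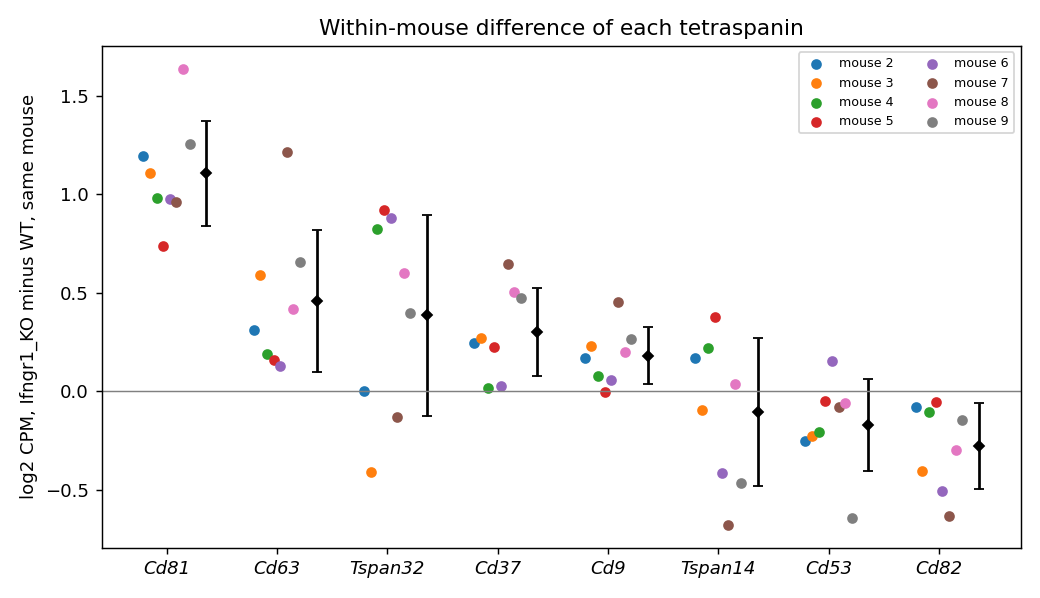
Difference in log2 CPM between the Ifngr1_KO and WT library of the same mouse (y axis) for each tetraspanin, ordered by mean; coloured dots are mice 2 to 9 and black diamonds with bars the mean ± SD (n = 8). Cd81 is at 0.74 or above in every mouse, and the brown dots of mouse 7 are the highest for Cd63, Cd37 and Cd9 and the lowest for Tspan14 and Cd82.

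Set against its relatives within the same mouse, the log2 difference of Cd81 exceeded the mean of the 7 relatives by 1.00 ± 0.28 (SD, n = 8 mice), with 0.51 as the lowest mouse and 1.44 as the highest. This is again a description, since Cd81 was chosen on this contrast. Cd81 had the largest difference of the 8 tetraspanins in 6 of 8 mice. In mouse 5 Tspan32 was larger (0.92 against 0.74) and in mouse 7 Cd63 was (1.21 against 0.96). The margin over single relatives was smallest for Cd63, at 0.65 ± 0.43, and largest for Cd82, at 1.38 ± 0.34 (SD, n = 8). The summed level of the 7 relatives was 4338 ± 391 CPM (WT) and 4391 ± 359.7 CPM (Ifngr1_KO), a within-mouse log2 difference of 0.018 ± 0.082 (SD, n = 8) and higher in Ifngr1_KO in 5 of 8 mice.

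For scale, 6 genes known to respond to interferon gamma, Gbp2, Irf1, Cd274, Psmb9 and Ifi47 among them, all fell in the same fit. Gbp2, a guanylate-binding protein, fell from 1391 ± 337 to 221 ± 81.1 CPM, and Psmb9, an immunoproteasome subunit, from 853 ± 185 to 238 ± 53.7 CPM (SD, n = 8). The log2 differences of the 6 genes ran from -2.70 to -1.67. No tetraspanin difference reached that size in the downward direction, and the upward one of Cd81 was 16th in size among 41 genes called higher whose average log2 CPM was 3 or more.

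Levels of different genes were compared per exon length, as TPM (counts per kilobase of exon, rescaled to the same total in every library), within WT libraries and so without the contrast that chose Cd81. Cd9 was highest, at 1446 ± 127 TPM, followed by Cd53 at 1086 ± 328 and Cd82 at 781 ± 120.0 TPM (SD, n = 8). A middle group held Cd37 at 159 ± 27.5, Tspan14 at 141 ± 20.1 and Cd63 at 137 ± 10.9 TPM. Cd81 was the 7th of 8 in level, at 43.4 ± 7.58 TPM in WT and 90.6 ± 20.0 TPM in Ifngr1_KO, and was 7th in both genotypes. Tspan32 was last at 6.47 ± 2.77 TPM.

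Neighbours in this order were tested within libraries by an exact two-sided sign-flip test over 8 mice, adjusted over 7 pairs. The smallest unadjusted p possible is 0.0078. The pairs came from the order of the same WT means, so the p-values do not test an order set beforehand. For the pairs with Cd81 they also use values that went into its choice. Cd63 exceeded Cd81 by 1.67 ± 0.25 on the log2 scale (higher in 8 of 8 mice, adjusted p = 0.0182), and Cd81 exceeded Tspan32 by 2.85 ± 0.65 (8 of 8, exact adjusted p = 0.0182). Cd82 exceeded Cd37 by 2.30 ± 0.46 (8 of 8, exact adjusted p = 0.0182). Cd9 over Cd53, at 0.46 ± 0.28 and 7 of 8 mice, and Cd53 over Cd82, at 0.44 ± 0.44 and 7 of 8, each had an exact adjusted p of 0.0219. Cd37 over Tspan14 did not pass the threshold (0.17 ± 0.44, exact adjusted p = 0.383), nor did Tspan14 over Cd63 (0.030 ± 0.28, exact adjusted p = 0.789). In Ifngr1_KO libraries both pairs passed the threshold. Cd37 over Tspan14 was at 0.57 ± 0.52 (exact adjusted p = 0.00911). Tspan14 over Cd63, with the order reversed, was at -0.53 ± 0.70 (exact adjusted p = 0.0391). A pass in 1 group and not in the other is not a test of a difference between the groups. With the longest transcript as the length, Cd37 over Tspan14 also passed, at 0.54 (exact adjusted p = 0.0328). By that length, Cd82 also ranked above Cd53 (log2 difference of Cd53 over Cd82 -0.28, exact adjusted p = 0.125), so the order of these neighbours depends on the length used.

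**Figure D3:**
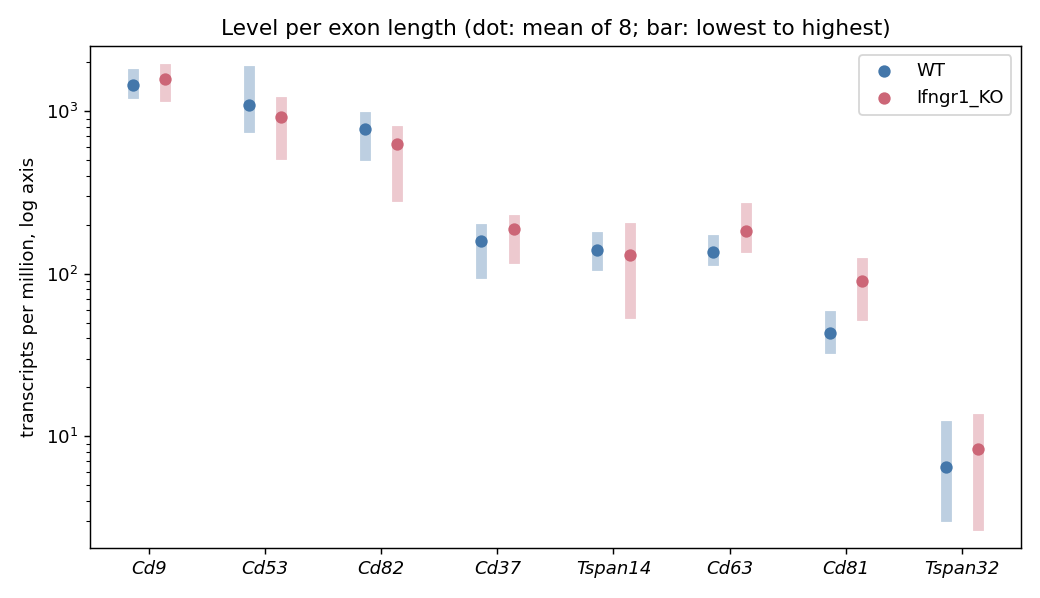
Level per exon length in TPM (log axis) of each tetraspanin in WT and Ifngr1_KO, ordered by the WT mean; dots are means of 8 libraries and bars run from the lowest to the highest library. Cd81 is 7th in both genotypes, at 43.4 TPM in WT and 90.6 TPM in Ifngr1_KO.

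Beyond the 8 members, 23 other tetraspanin genes were found in the table, 16 had a count and 9 passed the filter. None of the 9 was called by edgeR, by DESeq2 or by limma-voom, and none had an unadjusted p under 0.05 in edgeR. Of all 9851 genes, 2.8% were called by edgeR and 1602 had an unadjusted p under 0.05, so 0 of 9 is close to that background. Their log2 differences were above 0 for 5 and below 0 for 4, with a median of 0.41. The most abundant were Tspan13, with 44.2 ± 17.7 CPM in WT and 35.8 ± 18.2 in Ifngr1_KO, and Tspan2, with 23.6 ± 5.07 and 31.5 ± 8.00 CPM (SD, n = 8). Tspan2 had a log2 difference of 0.41 (SE 0.21, adjusted p = 0.360) and Tspan13 of -0.34 (SE 0.21, adjusted p = 0.460), by edgeR with Benjamini-Hochberg adjustment. Of the other 7 tested genes, Tspan31 had means of 10.1 CPM in WT and 6.92 CPM in Ifngr1_KO. The rest had group means of at most 5.34 CPM, with single libraries up to 10.6 CPM. The SE of the log2 differences of these 7 genes reached 1.41.

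Known partner proteins of these tetraspanins were looked up in a list of 27 genes, of which 21 were tested. They include integrins, the ADAM10 and ADAM17 proteases, the ezrin and moesin linkers and the IFITM proteins. Among them 1 fell, 0 rose and 20 were not called, with a median log2 difference of -0.13 against 0.046 for all genes. Of all genes tested 2.32% fell, a share that 1 of 21 does not set apart, and 5 of the 21 partners had an unadjusted p under 0.05, as did 1602 of 9851 genes. The gene that fell was Clec7a, which encodes dectin-1, the partner of CD37, from 427 ± 108 to 272 ± 65.6 CPM (SD, n = 8). Its log2 difference was -0.66 (SE 0.14, adjusted p = 0.0271, edgeR) and it was lower in 8 of 8 mice. That call was lost without the mouse block (adjusted p = 0.0625), with library totals (0.0759), with the mitochondrial covariate (0.446) and without any 1 of mice 2, 3, 4, 6, 8 and 9 (0.0587 to 0.108), at log2 differences of -0.70 to -0.55. Clec7a fell while Cd37 itself had a log2 difference of 0.30.

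Of the partners of CD81, the EWI-2 gene Igsf8 had 9.59 ± 5.29 CPM (WT) and 5.89 ± 3.45 CPM (Ifngr1_KO, SD, n = 8; log2 difference -0.71, SE 0.52, adjusted p = 0.534, edgeR). The interferon-induced membrane proteins Ifitm1, Ifitm2 and Ifitm3, known to associate with CD81, had log2 differences of 0.37, 0.21 and 0.12 and none was called. Adam10, the cargo of TSPAN14, had 43.3 ± 15.0 and 50.0 ± 21.0 CPM (SD, n = 8), and Hbegf, the partner of CD9, 3.10 ± 0.954 and 4.73 ± 1.77 CPM. The IFITM genes, Igsf8, Adam10, Hbegf and Ptprc were picked out by their known partner, after values had been seen.

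In a list of 20 genes for vesicle formation and lysosomes 18 were tested, and none was called by edgeR, DESeq2 or limma-voom, while 2 of the 18 had an unadjusted p under 0.05 in edgeR. Of all 9851 genes 2.8% were called and 1602 had such a p, so neither count stands above the background. The median log2 difference was -0.15. Sdcbp, the syntenin that links CD63 to vesicle budding, had 1649 ± 258 and 1497 ± 308 CPM in WT and Ifngr1_KO, and Anxa2, an annexin common on vesicles, 1754 ± 225 and 1732 ± 327 CPM (SD, n = 8).

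**Figure D4:**
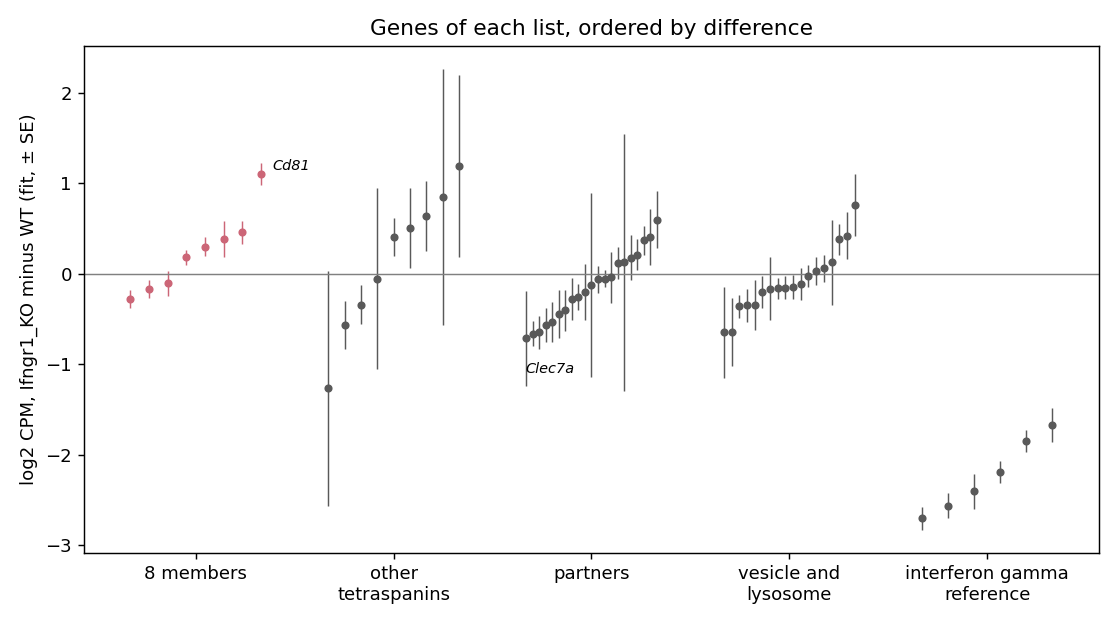
Log2 difference between Ifngr1_KO and WT from the fit across all genes (y axis, dots with bars of ± SE) for the members, the other tetraspanins tested, their partners, vesicle and lysosome genes and 6 interferon gamma response genes, ordered within each list. Cd81 at 1.11 tops the members, Clec7a at -0.66 is the 1 partner called, and the response genes lie between -2.70 and -1.67.

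Cd81 and Tspan32 lie side by side on chromosome 7. Within 250 kb of the start of Cd81, 20 genes are annotated and 5 were tested, Cd81 and Tspan32 among them. The other 3 were Ascl2, Tssc4 and Kcnq1ot1, and none was called. Tssc4, which begins 16.5 kb from the start of Cd81, had 8.20 and 12.5 CPM in WT and Ifngr1_KO (log2 difference 0.59, SE 0.44, adjusted p = 0.548, edgeR). Ascl2, a transcription factor gene, had 0.866 and 1.30 CPM and the noncoding Kcnq1ot1 1.48 and 2.19 CPM. All 5 differences were above 0, as were those of 53.2% of all genes tested, but those other than Cd81 had SE of 0.20 to 0.67. Cd63 shares chromosome 10 with Ifngr1, at a distance of 109 Mb.

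How the tetraspanins varied from library to library was described by subtracting each group's mean from log2 CPM and correlating the remainders over all 16 libraries. Pairs of these libraries share a mouse and all share the scaling, so the correlations carry no test. Cd9 and Cd63 varied together (Pearson r = 0.75, 0.63 without mouse 7 and 0.92 without mouse 9), as did Cd81 and Cd82 (0.61, and 0.63 without mouse 7). Cd63 and Tspan14 varied in opposite directions (-0.74, and -0.58 without mouse 7), as did Cd37 and Cd53 (-0.69, but -0.34 without mouse 9). The remainders of Cd81 were compared with those of 5162 genes at an average log2 CPM of 3 or more. With 1 predicted gene skipped, the most alike were Dazap2 (r = 0.79), Vgll4 (0.78), Litaf (0.77), Fcgr3 (0.74) and Lmnb1 (0.74). These are the top of a long ranking over 16 libraries. None of these 5 was called between genotypes. Vgll4, a cofactor of TEAD factors, had a log2 difference of 0.64 and an edgeR adjusted p of 0.0578, and the other 4 had log2 differences of -0.33 to -0.088.

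Cells other than neutrophils that carry tetraspanins were followed by their markers. B cells, which hold much CD81 and CD37, had a summed level of 5 markers of 3.86 to 18.4 CPM in WT and 8.45 to 27.9 CPM in Ifngr1_KO, higher in Ifngr1_KO in 5 of 8 mice, with 0 of 4 tested markers called. T and NK cell markers summed to 2.89 to 6.77 and 1.92 to 14.1 CPM. Platelet markers, of interest because platelets are rich in CD9, summed to 2.11 to 15.3 and 3.86 to 12.2 CPM. Kupffer cell and macrophage markers summed to 17.9 to 38.9 CPM in WT and 19.9 to 34.6 CPM in Ifngr1_KO, with Vsig4 at 0 in all 16 libraries and Clec4f at 0 in 15. Endothelial markers stayed at or under 4.77 CPM in every library, dendritic cell markers at or under 10.3 and markers of eosinophils and basophils at or under 20.5. Hepatocyte markers summed to 61.3 to 403 and 61.4 to 508 CPM.

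The monocyte list had the highest sums of the lists other than that of neutrophils. It summed to 2155 to 3415 CPM in WT and 1466 to 2620 CPM in Ifngr1_KO, and Csf1r and Ly6c2 made up nearly all of it. The monocyte sum was lower in Ifngr1_KO in 8 of 8 mice, while the early granulocyte sum given above was higher in 8 of 8. Ly6c2 fell (log2 difference -0.73, adjusted p = 0.00543, edgeR). The defining monocyte receptor gene Ccr2 was at 0 to 2.22 CPM in WT and 0 to 3.60 CPM in Ifngr1_KO. The part of other cells in the tetraspanin values was not tested.

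**Figure D5:**
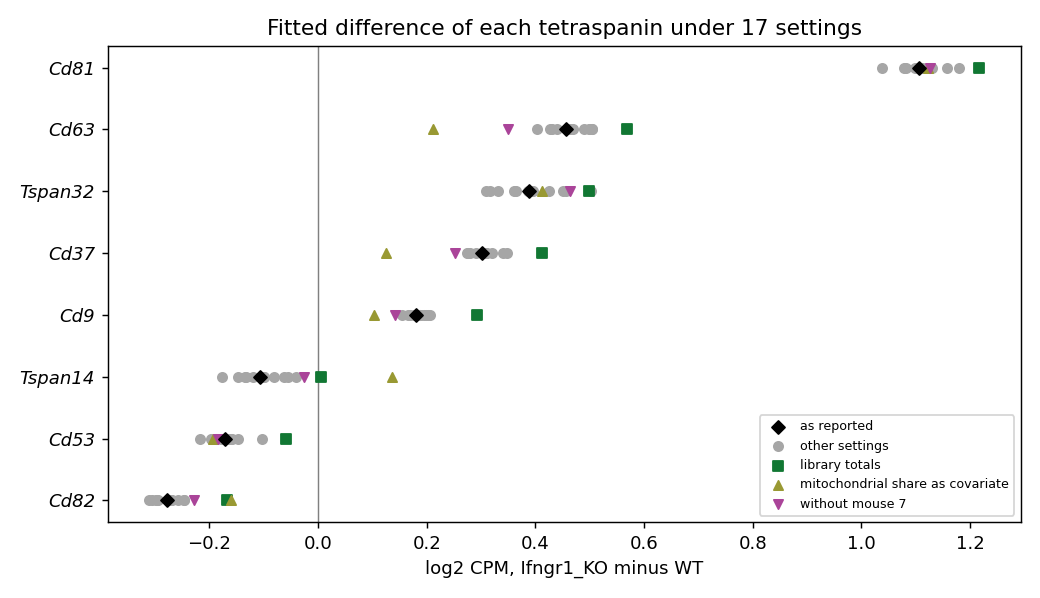
Fitted log2 difference between Ifngr1_KO and WT (x axis) of each tetraspanin under 17 settings, with the reported fit as a black diamond, library totals as green squares, the mitochondrial covariate as olive triangles, mouse 7 left out as purple triangles and other settings as grey dots. Cd81 stays between 1.04 and 1.217, and Tspan14 lies on both sides of 0 (-0.18 to 0.14).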

How the data were processed

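RNA from sorted liver neutrophils was reverse-transcribed from 1 ng with oligo-dT primers by the SMART-Seq chemistry, with 13 PCR cycles and a Nextera XT preparation, per the labels' protocols. The chemistry has neither unique molecular tags nor strand information. The authors deposited estimated counts per Ensembl identifier, all of them whole numbers. Salmon 0.14.2, DESeq2 1.22.1 and build mm10 are named in the submitters' processing notes, and the annotation and any filters are unstated in the labels.

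Names, positions and exon lengths came from GENCODE vM21 (mm10), in which 37 of 54532 identifiers had no entry. Genes passing filterByExpr were scaled by TMM and tested in edgeR 4.0.16 (R 4.3.3) by its quasi-likelihood test, with the mouse number as a block because the series text gives 1 mouse per pair, and p-values were adjusted by Benjamini-Hochberg over 9851 genes (threshold 0.05). Differences are Ifngr1_KO minus WT in log2, and their SE is the difference over the square root of F. Deviations from group means correlated at 0.138 within mice (0.0246 to 0.314) and -0.0180 between mice. TPM used 0.5 added counts and the union of exons. Where a symbol had more than 1 identifier, that with most counts was used. Replicates are separate mice.

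Alternatives were no block, other scalings and filters, DESeq2 1.42.0, limma-voom (limma 3.58.1), a mitochondrial covariate, an adjusted p of 0.1 and leaving out each mouse. The members, the lists and the rule for naming genes were chosen with earlier results of these data known. The rule named all members, and up to 4 called genes per list by smallest p or the 2 most abundant where none was called. It also named the 5 genes most like Cd81, predicted genes aside, and every tested gene within 250 kb of Cd81. Some genes of the lists are counted in their totals but not reported here by name.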

Additional observations from a re-analysis of the deposited data

Results flagged for a closer look

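Each of the 8 tetraspanins was checked for a sample far from the others in WT, in Ifngr1_KO and in the within-mouse difference, 24 groups in all, with Dixon's ratio of the gap to the range above 0.526. Chance alone passes this limit in about 1 in 20 groups, and 2 of the 24 did. Cd53 in the WT library of mouse 9 was 1491 CPM, with a gap of 0.681 of the range. Cd82 in the WT library of mouse 2 was 739 CPM, the lowest of its group, with a gap of 0.549 of the range.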

How the results depend on the processing

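The log2 differences of the 8 tetraspanins moved by less than 1 SD of their within-mouse values under all 16 other fits, and all but Tspan14 kept their sign in each. Cd81 ran from 1.04 (without mouse 8) to 1.217 (library totals). Of the members, 3 (Cd81, Cd37 and Cd63) passed the threshold with library totals and with DESeq2, and 2 (Cd81 and Cd63) with limma-voom. Over all genes, 85 were lower and 8 higher with the mitochondrial covariate, 572 and 488 with DESeq2, 425 and 172 with limma-voom, and 361 and 142 at a threshold of 0.1. Genes called higher numbered 102 with library totals and 31 with no filter. Leaving out 1 mouse gave 144 to 334 lower and 19 to 78 higher, with 144 lower and 19 higher without mouse 3, 145 and 24 without mouse 6, 144 and 26 without mouse 8, 152 and 22 without mouse 9, and 78 higher without mouse 7. Without the replicate block 216 genes were lower and 52 higher, and the log2 difference of Cd81 was 1.10. Called partners numbered 0 without the block, with library totals and with the covariate, 2 (Clec7a and Itgal, the latter named after its values were seen) with DESeq2 and with limma-voom, and 0 to 1 without 1 mouse. With the length of the longest transcript, the log2 difference in level was -0.28 for Cd53 over Cd82, 0.54 for Cd37 over Tspan14 (exact adjusted p = 0.0328) and -0.22 for Tspan14 over Cd63. In Ifngr1_KO libraries the last 2 were 0.57 (0.00911) and -0.53 (0.0391), and without 1 mouse Tspan14 over Cd63 ran from -0.0085 to 0.11. The cause of these changes was not tested. Counts include PCR copies, and scarce genes could have a large SE, up to 1.41 among the other tetraspanins. The source of that imprecision was not tested.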
